A study of Mus musculus with 8 samples.

Results

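The Wnt target genes described here are 9 genes of the canonical Wnt pathway: Wnt3, Tcf7, Lef1, Tcf7l1, Axin2, Nkd1, Sp5, Cdx1 and T. They were chosen by name, and their Ensembl identifiers, without version number, were found for 9 of 9 among the 43309 genes of the count table. The counts came from 8 RNA-Seq libraries of mouse embryonic stem (ES) cells of the J1 line, grown in serum on gelatin without feeder cells, and made with the SMARTer Ultra Low RNA Kit straight from lysed cells. There were 4 groups of 2 libraries, which combined a Zbtb24 genotype, WT (2lox/+) or KO (1lox/1lox), with an input of 1000 cells (about 10 ng of RNA, 10 PCR cycles) or 100 cells (about 1 ng, 18 PCR cycles). Number of cells and number of PCR cycles changed together and cannot be told apart. The design text speaks of separate clones as biological replicates, but the labels do not say which clone gave which library, so each p-value below measures only the spread between these libraries.

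In the canonical pathway, a secreted Wnt ligand binds Frizzled and LRP receptors, which stops a destruction complex built on Axin from breaking down beta-catenin. Beta-catenin then enters the nucleus and joins TCF/LEF factors on target genes, and some of those targets, Axin2 and Nkd1 among them, act back on the pathway as inhibitors. In mouse ES cells the pathway favours self-renewal, in part by lifting the repression that Tcf7l1 exerts on pluripotency genes, while T and Cdx1 belong to the primitive streak and posterior embryo. ZBTB24 is a zinc finger protein with a binding word of its own, and Axin2 is one of its reported targets.

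The promoters were read from RefSeq windows of 300 bases (GRCm38.p6), 250 before the transcription start and 50 from it on, to see which of these genes carry a TCF/LEF word or the ZBTB24 word next to the start. The 4 TCF/LEF words were CTTTGAA, its close relative CTTTGAT, the variant word CTTTGTA and the variant word CTTTGTT. The ZBTB24 word was CAGGACCT, both strands were searched, and no 2 matches overlapped. A window was at hand for 8 of the 9 genes, 12 windows in all. A TCF/LEF word stood in a window of 4 of the 8 genes (Sp5, T, Wnt3 and 1 of 4 starts of Lef1), while 16.9% of all 32851 windows, and 18.9% of the 27025 genes with a window, held at least 1. The ZBTB24 word was in 0 of the 12 windows and in 1.99% of all windows. The Axin2 window is shown in full because Axin2 had the largest ratio between genotypes among the 9 genes, and the Sp5 window because it held 2 TCF/LEF words. Capitals mark the TCF/LEF words, a match describes letters and not a proven site, and the absence of a word says only that these letters are not in this window.
Axin2, chr11:108920099-108920398, plus strand: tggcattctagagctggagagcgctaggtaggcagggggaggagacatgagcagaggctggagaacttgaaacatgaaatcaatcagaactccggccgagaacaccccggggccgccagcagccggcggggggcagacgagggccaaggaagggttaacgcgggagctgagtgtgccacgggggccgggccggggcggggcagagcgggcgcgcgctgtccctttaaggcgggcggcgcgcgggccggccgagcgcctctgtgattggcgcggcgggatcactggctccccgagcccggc
Sp5, chr2:70474673-70474972, plus strand: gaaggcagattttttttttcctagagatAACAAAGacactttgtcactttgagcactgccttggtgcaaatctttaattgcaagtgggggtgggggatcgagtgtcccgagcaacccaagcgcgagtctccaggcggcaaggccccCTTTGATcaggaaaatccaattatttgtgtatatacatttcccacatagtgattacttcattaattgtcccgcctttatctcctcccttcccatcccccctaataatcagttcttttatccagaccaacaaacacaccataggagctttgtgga
T, chr17:8434176-8434206, word on the minus strand: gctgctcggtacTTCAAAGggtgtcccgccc
Wnt3, chr11:103774181-103774211, word on the plus strand: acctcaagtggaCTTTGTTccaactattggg
Lef1, chr3:131156135-131156165, word on the minus strand: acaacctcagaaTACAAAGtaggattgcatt

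Counted from the start to the first base of the match, the Sp5 words lay 222 and 104 bases before the start. The T word lay 235 bases and the Lef1 word 147 bases before the start, and the Wnt3 word began 18 bases after it. The windows of Axin2, Tcf7, Tcf7l1 and Nkd1 held none of the words searched.

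The libraries held 9666985 to 16686525 counts, the smallest being replicate 1 of WT at 100 cells. Counts of the targeted gene went against the labels: Zbtb24 had 526 and 545 counts in KO against 244 and 201 in WT at 1000 cells, and 532 and 494 against 197 and 269 at 100 cells (log2 ratios 1.37 and 0.91, adjusted p = 4.31e-11 and 0.0011, edgeR quasi-likelihood test). A count over all exons does not show whether a segment is deleted, so the groups are called labelled KO and labelled WT throughout. The ES cell markers Pou5f1, Sox2, Nanog, Zfp42 and Esrrb summed to between 1163 and 1567 cpm in each library, where cpm is a gene's counts scaled to a library total of 1000000. Their sums were higher in labelled KO, at 1545 to 1567 against 1234 to 1292 cpm with 1000 cells. With 100 cells they were 1310 to 1341 against 1163 to 1285 cpm. Nanog rose most, with means of 619 against 283 cpm, and 433 against 280. Zfp42 had the lower mean in labelled KO at both inputs (603 against 722, and 555 against 693 cpm). So did Pou5f1 at 1000 cells and Esrrb at 100 cells. Of these 5 markers, 3 were called higher and 2 lower at 1000 cells, and 3 higher and 1 lower at 100 cells. A list of 11 adult brain markers, among them Mbp and Snap25, summed to 303 and 316 cpm in the labelled KO libraries and 14.9 and 16.8 cpm in the labelled WT libraries at 100 cells, where 11 of 11 were called higher in labelled KO. At 1000 cells the sums were 30 and 26.9 cpm in labelled KO and 15.2 cpm in both labelled WT libraries. There, 3 of 11 were called higher, 0 lower and Aqp4 was at 0 in all 4 libraries. Mobp made up most of this gap, with means of 16.8 against 6.02 cpm. Camk2a, Mog and Gfap had the lower mean in labelled KO (0.432 against 1.1, 0.406 against 0.645 and 0.41 against 0.72 cpm). The sums of the trophoblast, neural progenitor, primitive endoderm and fibroblast lists also lay apart between genotypes at both inputs. So did those of the primitive streak and mesoderm list, which are given with T below. At most 2 of the 3 tested markers of each list were called at an input. Trophoblast markers summed to 57.7 to 58.3 cpm in labelled KO and 35.8 to 38.6 in labelled WT at 1000 cells, and to 77.7 to 80 against 30.1 to 55.6 at 100 cells. Most of this sum was Tfap2c, with means of 53.6 against 35 cpm at 1000 cells and 74.5 against 40.1 at 100 cells. Hand1 went the other way at 100 cells (0.0373 against 0.647 cpm). Neural progenitor markers summed to 11.3 to 13.8 against 20.4 to 23.2 cpm, and 14.2 to 17.7 against 20.5 to 21.1. Nes carried this gap, with means of 3.7 against 12.6 cpm, and 5.03 against 9.91. Pax6 lay at 8.37 against 8.75 cpm, and 10.5 against 10.2. Primitive endoderm markers summed to 4.04 to 4.57 against 4.74 to 5.03 cpm, and 7.23 to 8 against 3.02 to 6.13. Fibroblast markers summed to 1.73 to 2.02 against 3.3 to 4.17 cpm, and 5 to 5.51 against 3.06 to 3.32. The part of these markers in the genotype ratios below, at either input, was not tested. Replicates of labelled WT at 100 cells also differed most, with a chi-square per degree of freedom of 17.6 against 1.99 to 3.28 in the other groups.

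Between genotypes, 3 of the 9 genes differed at each input. Axin2 was lower and Tcf7 was higher in labelled KO at both inputs, Wnt3 was lower at 1000 cells, and Nkd1 was higher at 100 cells. A gene is called when the adjusted p of edgeR's quasi-likelihood test (Benjamini-Hochberg, over 16816 tested genes) does not exceed 0.05, and all 9 genes passed the filter, which asked for 10 or more counts in any library. T passed it only through 1 labelled KO library of 100 cells. At 1000 cells, 41.5% of all tested genes were called (20.9% higher, 20.6% lower), beside 1 gene higher and 2 lower of the 9. In counts, 3514 genes were higher and 3466 lower there, a balance that moved to 2778 and 4288 when libraries were scaled by total count alone. At 100 cells 34.2% of all tested genes were called (17.6% higher, 16.6% lower), beside 2 genes higher and 1 lower of the 9. The median log2 ratio of the 9 genes was -0.03 at 1000 cells and 0.34 at 100 cells, beside 0.00 over all tested genes at both.

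**Figure D1:**
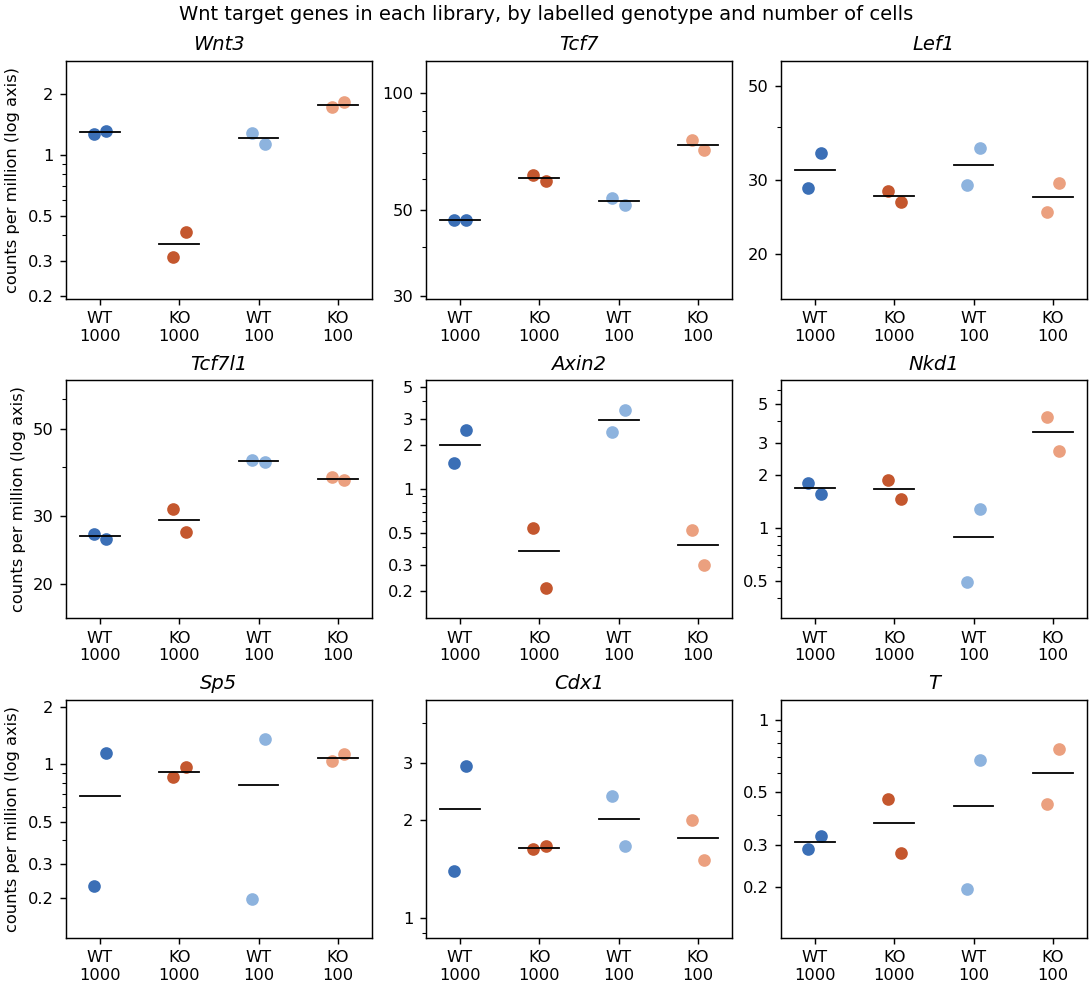
Each panel plots 1 gene; points are the 2 libraries of each group, lines are group means, and the vertical axis is cpm on a log scale. Axin2 sits lower in labelled KO than in labelled WT at both inputs, Wnt3 is lowest in labelled KO at 1000 cells (0.311 and 0.415 cpm), and Nkd1 is highest in labelled KO at 100 cells (4.25 and 2.72 cpm).

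Axin2 (ENSMUSG00000000142.11, chromosome 11, 108920349 to 108950783, plus strand), the scaffold of the destruction complex that Wnt signalling itself induces, had the largest ratio of the 9 genes at each input. It had 26 and 31 counts in labelled WT and 7 and 3 in labelled KO at 1000 cells, and 25 and 46 against 7 and 4 at 100 cells. The 4 labelled WT libraries lay at 1.5, 2.53, 2.47 and 3.47 cpm, and the 4 labelled KO libraries at 0.543, 0.208, 0.522 and 0.302 cpm, so that the groups did not overlap at either input. The level in labelled KO was lower by 5.27-fold at 1000 cells (log2 ratio -2.40 ± 0.52 SE, adjusted p = 0.000431, edgeR, n = 2 and 2) and by 7.32-fold at 100 cells (log2 ratio -2.87 ± 0.49, adjusted p = 0.0024). With so few reads, counting error alone gave the ratio of the summed counts a wide interval, 0.0863 to 0.374 (exact 95% interval) around 0.189 at 1000 cells and 0.0649 to 0.258 around 0.136 at 100 cells. The genotype ratio did not differ detectably between inputs (difference in log2 ratio -0.43, approximate 95% interval -2.22 to 1.35, adjusted p = 0.765), and neither genotype was called between 100 and 1000 cells. In bulk libraries, fewer cells that express a gene and less RNA per cell cannot be told apart. Both genotype calls held in each of the 11 alternatives that could test the gene. Axin2 reached the minimum count of the filter only in the labelled WT libraries, where it was high. The alternative filter that asked for this minimum in every library removed Axin2, so that setting could not test its calls. Axin2 shares 209 bases of exon with Gm11670 on the opposite strand, and the counting did not use strand.

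Wnt3 (ENSMUSG00000000125.5, chromosome 11, 103774150 to 103817957, plus strand), a ligand needed for the primitive streak, moved with genotype at 1 input only by the test. Its counts were 22 and 16 in labelled WT, 4 and 6 in labelled KO at 1000 cells, 13 and 15 in labelled WT and 23 and 24 in labelled KO at 100 cells. The labelled KO libraries of 1000 cells were thus below the other 6, and those of 100 cells above. At 1000 cells the level was 3.47-fold lower in labelled KO (log2 ratio -1.79 ± 0.56, adjusted p = 0.0107, edgeR). At 100 cells the log2 ratio was 0.51 ± 0.42 (approximate 95% interval -0.43 to 1.44, adjusted p = 0.375). The difference between these ratios was itself called (2.34 ± 0.65, adjusted p = 0.0247). So was the comparison of 100 with 1000 cells in labelled KO, where the level was 4.74-fold higher at 100 cells (log2 ratio 2.24 ± 0.49, adjusted p = 0.000217), while in labelled WT the log2 ratio between inputs was -0.11 ± 0.51 (adjusted p = 0.966). The adult brain markers were raised in the same labelled KO libraries of 100 cells (303 and 316 cpm in sum), and their part in the Wnt3 result was not tested. The 1000-cell call was lost without labelled KO replicate 1 (adjusted p = 0.0619), with DESeq2 (0.0902) and after thinning to the smallest total count (0.0571). The difference between inputs was lost without any 1 of the labelled WT or labelled KO libraries of 1000 cells (adjusted p = 0.0654 to 0.0926) or of the labelled KO libraries of 100 cells (0.0863 and 0.105).

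Tcf7 (ENSMUSG00000000782.11, chromosome 11, 52252371 to 52283014, minus strand), which encodes the activating factor TCF1, was the most abundant of the 9 genes and rose in labelled KO at both inputs. Its counts were 815 and 576 in labelled WT, 795 and 860 in labelled KO at 1000 cells, and 542 and 684 against 1016 and 944 at 100 cells. By level, both labelled WT libraries of 1000 cells were at 47.1 cpm and the labelled KO libraries at 61.7 and 59.5 cpm, and at 100 cells the values were 53.5 and 51.6 against 75.8 and 71.3 cpm, without overlap at either input. The level was 1.29-fold higher at 1000 cells (log2 ratio 0.36 ± 0.08, adjusted p = 0.000743, edgeR) and 1.36-fold higher at 100 cells (0.44 ± 0.11, adjusted p = 0.0147). The 100-cell call was lost without labelled KO replicate 1 (adjusted p = 0.284) or replicate 2 (0.181), with log2 ratios of 0.40 and 0.48. The ratios at the 2 inputs did not differ detectably (0.12, approximate 95% interval -0.16 to 0.41, adjusted p = 0.569). In labelled KO, Tcf7 was also 1.22-fold higher at 100 than at 1000 cells (log2 ratio 0.28 ± 0.07, adjusted p = 0.0012), in the libraries with the raised brain markers, whose part in this ratio was not tested.

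Lef1 (ENSMUSG00000027985.10, chromosome 3, 131110471 to 131224356, plus strand), the other activating partner of beta-catenin among the 9, was not called in any of the 5 comparisons. Its levels were 28.6 and 34.6 cpm in labelled WT and 28.2 and 26.6 in labelled KO at 1000 cells, and 29.1 and 35.7 against 25.1 and 29.4 cpm at 100 cells. Both labelled KO groups had the lower mean, 0.872-fold at 1000 cells (log2 ratio -0.20, approximate 95% interval -0.42 to 0.02, adjusted p = 0.148, edgeR) and 0.813-fold at 100 cells (-0.30, -0.64 to 0.04, adjusted p = 0.157), and the libraries overlapped at 100 cells. Lef1 became called as lower without labelled WT replicate 1 at 1000 cells (log2 ratio -0.34, adjusted p = 0.0266) or at 100 cells (-0.43, adjusted p = 0.000362), and at 1000 cells when libraries were scaled by total count alone (-0.28, adjusted p = 0.036), a scaling that moved the median of all tested genes to -0.09. It shares 1208 bases of exon with Gm43352 on the opposite strand.

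Tcf7l1 (ENSMUSG00000055799.9, chromosome 6, 72626378 to 72789254, minus strand), the mainly repressing member of the family in ES cells, was called between inputs in labelled KO and not between genotypes. The levels were 26.9 and 26.1 cpm in labelled WT and 31.1 and 27.2 in labelled KO at 1000 cells, and 41.8 and 41.1 against 37.6 and 37 cpm at 100 cells, so that each library of 100 cells was above each library of 1000 cells. The genotype ratio was not called at 1000 cells (log2 ratio 0.13, approximate 95% interval -0.08 to 0.35, adjusted p = 0.337, edgeR) or at 100 cells (-0.20, -0.46 to 0.07, adjusted p = 0.232). In labelled KO the level was 1.29-fold higher at 100 cells (log2 ratio 0.36 ± 0.09, adjusted p = 0.00106), in the libraries that also held the brain markers, whose part was not tested. In labelled WT, where those markers stayed at 14.9 to 16.8 cpm in sum, it was 1.55-fold higher (0.63 ± 0.15), which just missed the threshold (adjusted p = 0.0557) and passed it in 7 of 13 alternatives, among them those without labelled WT replicate 1 (5.45e-05) or replicate 2 (1.36e-05) of 100 cells. Without replicate 1 or replicate 2 of 1000 cells the adjusted p was 0.887 and 1. Its exons share 179 bases with Gm15401 on the opposite strand.

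Among the TCF/LEF genes, levels per kilobase of exon were ordered Tcf7, Tcf7l1, Lef1 and Tcf7l2 in every library. In labelled WT at 1000 cells they were 17.9 ± 0.011, 6.75 ± 0.146, 3.6 ± 0.479 and 0.863 ± 0.0181 cpm per kb (mean ± SD, n = 2), and in labelled KO 23.1 ± 0.603, 7.42 ± 0.698, 3.12 ± 0.125 and 1.33 ± 0.0146. As a share of the summed level of these 4 genes, Tcf7 made up 62.1% and 61% in labelled WT and 65.4% and 66.8% in labelled KO at 1000 cells, and 58% and 56.1% against 67.6% and 66% at 100 cells. Lef1 made up 11.3% and 13.4% against 8.91% and 8.93%, and 9.43% and 11.6% against 6.68% and 8.14%. The 4 shares sum to the whole and are therefore not independent of each other, and no test was made on them. Tcf7l2, a relative known from intestinal stem cells and not one of the 9 genes, was called higher in labelled KO at both inputs (log2 ratios 0.63 and 0.66, adjusted p = 0.00181 and 0.0249, edgeR), the latter not without labelled KO replicate 1 or 2 of 100 cells.

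**Figure D2:**
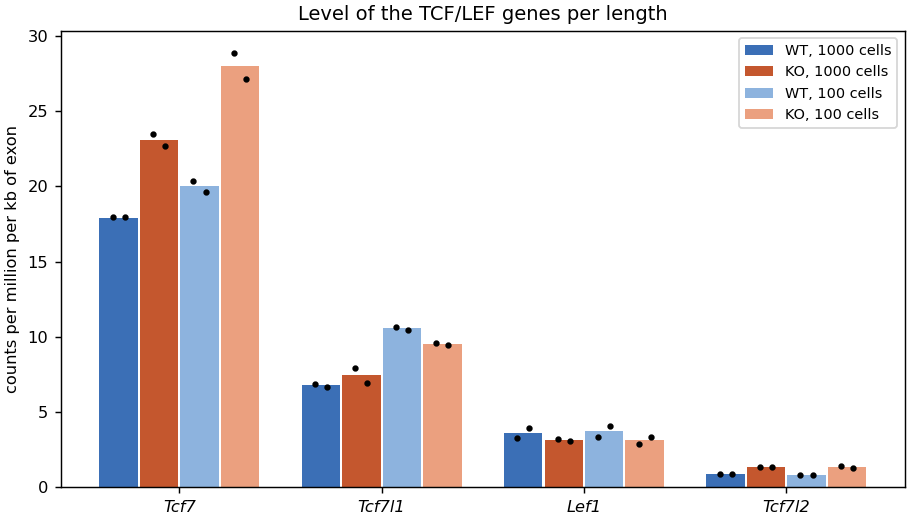
Bars are group means and dots are libraries, for the TCF/LEF genes in cpm per kb of exon. Tcf7 is highest in each group, from 17.9 in labelled WT at 1000 cells to 28 in labelled KO at 100 cells, and Tcf7l1 is higher at 100 cells (10.6 and 9.5) than at 1000 cells (6.75 and 7.42).

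Nkd1 (ENSMUSG00000031661.7, chromosome 8, 88521354 to 88594884, plus strand), a feedback inhibitor that binds Dishevelled, differed from Axin2, the other feedback inhibitor, in its pattern. Its counts were 31 and 19 in labelled WT and 24 and 21 in labelled KO at 1000 cells, and 5 and 17 against 57 and 36 at 100 cells. The 1000-cell groups overlapped, while at 100 cells both labelled KO libraries were above all others. At 1000 cells the log2 ratio was -0.03 (approximate 95% interval -0.77 to 0.71, adjusted p = 0.962, edgeR). At 100 cells the level was 3.63-fold higher in labelled KO (1.86 ± 0.47, adjusted p = 0.014), and counting error alone gave the ratio of summed counts, 3.71, an exact 95% interval of 2.31 to 6.2. The 2 ratios differed (1.93 ± 0.60, adjusted p = 0.0392), and in labelled KO the level was 2.11-fold higher at 100 than at 1000 cells (1.08 ± 0.29, adjusted p = 0.00237). The brain markers were raised in these same 2 libraries (303 and 316 cpm against 14.9 and 16.8 in labelled WT at 100 cells), and their part in the Nkd1 result was not tested. Without labelled KO replicate 1 of 100 cells the genotype call was lost (log2 ratio 1.53, adjusted p = 0.175), as was the call between inputs in labelled KO (0.72, adjusted p = 0.135). The difference between inputs was lost without any 1 of the 4 libraries of 1000 cells (adjusted p = 0.0769 to 0.142) or of the labelled KO libraries of 100 cells (0.184 and 0.0696).

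The remaining 3 genes are transcription factors induced by Wnt signals, and none was called in any of the 5 comparisons. Sp5 (ENSMUSG00000075304.2, chromosome 2, 70474923 to 70477729, plus strand), a zinc finger factor, had 4 and 14 counts in labelled WT and 11 and 14 in labelled KO at 1000 cells, and 2 and 18 against 14 and 15 at 100 cells. The labelled WT replicates of Sp5 stood apart, at 0.231 and 1.14 cpm and at 0.198 and 1.36 cpm, and the 4 labelled KO libraries lay within that span. Its log2 ratio had approximate 95% intervals of -0.73 to 1.77 at 1000 cells and -1.21 to 1.91 at 100 cells. Without labelled WT replicate 2 of 100 cells Sp5 was called higher in labelled KO (log2 ratio 2.37, adjusted p = 0.0184, edgeR), and without replicate 1 its ratio turned to -0.35. Cdx1 (ENSMUSG00000024619.8, chromosome 18, 61018862 to 61036199, minus strand), a homeobox factor of the posterior body axis, had 24 and 36 against 21 and 24 counts at 1000 cells and 24 and 22 against 27 and 20 at 100 cells, with log2 ratios of -0.34 (-1.10 to 0.41) and -0.22 (-1.12 to 0.68). T (ENSMUSG00000062327.6, chromosome 17, 8434423 to 8442496, plus strand), or Brachyury, which specifies mesoderm, had 5 and 4 against 6 and 4 counts at 1000 cells and 2 and 9 against 6 and 10 at 100 cells. For T, counting error alone allowed ratios between 0.438 and 3.34 at 1000 cells and between 0.556 and 3.04 at 100 cells. Its fitted log2 ratios, which also take in the spread between libraries, were 0.26 (approximate 95% interval -1.44 to 1.96) and 0.34 (-1.39 to 2.06). Changes within these intervals could not be told from no change. The 5 primitive streak and mesoderm markers, T included, summed to between 6.13 and 9.14 cpm in each library. Their sums were higher in labelled KO, at 7.07 to 7.47 against 6.13 to 6.54 cpm with 1000 cells. With 100 cells they were 7.9 to 9.14 against 6.62 to 6.86 cpm. Most of each sum was Eomes, with means of 5.63 against 4.98 cpm, and 7.21 against 4.66. At 100 cells Gsc, Mesp1 and Mixl1 went the other way (0.113 against 0.523, 0.075 against 0.348 and 0.524 against 0.77 cpm). Of the 3 tested markers of this list, 0 were called at either input.

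**Figure D3:**
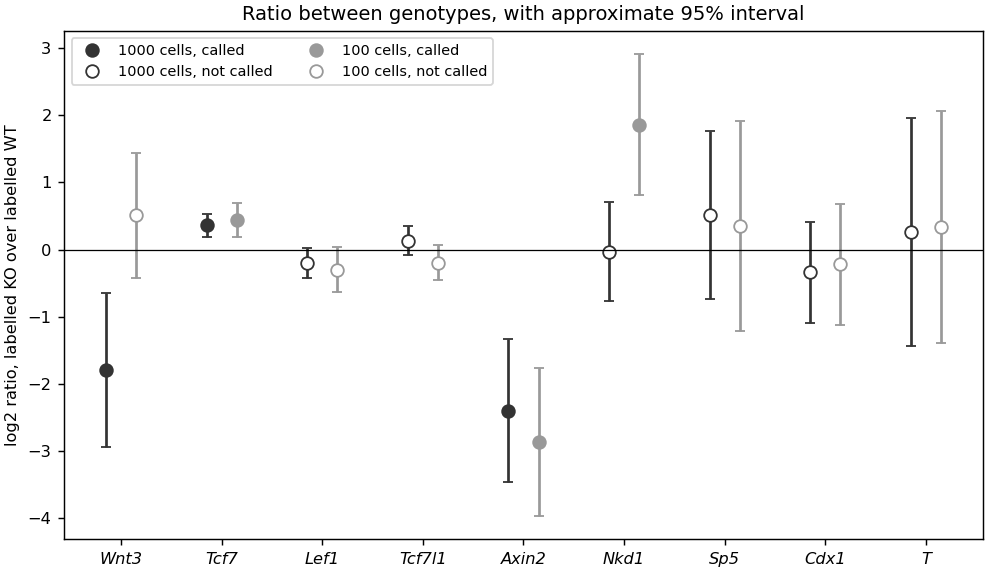
Points are log2 ratios of labelled KO over labelled WT for each of the 9 genes, with approximate 95% intervals derived from the edgeR F statistic; filled points were called. Axin2 is below 0 at both inputs (-2.40 and -2.87), Wnt3 only at 1000 cells (-1.79), and Nkd1 is above 0 at 100 cells (1.86).

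Across inputs, the share of all tested genes called was 0.827% in labelled WT and 52.1% in labelled KO (27.3% higher and 24.8% lower at 100 cells). Of the 9 genes, 0 were called in labelled WT by edgeR, with 1, Tcf7l1, at an unadjusted p under 0.05 (0.000543) and 1 called by DESeq2. In labelled KO 4 were called, all higher at 100 cells: Wnt3, Nkd1, Tcf7l1 and Tcf7. The log2 ratio of Tcf7l1 was larger in labelled WT (0.63) than in labelled KO (0.36). Replicates of labelled WT at 100 cells differed most (chi-square per degree of freedom of 17.6 against 1.99 to 3.28 in the other groups). The part of this spread in the shares and counts of called genes was not tested. The difference of the genotype ratio between inputs was called for 16.3% of all tested genes, 9.28% with the higher ratio and 7.05% with the lower ratio at 100 cells, and for 2 of the 9 genes, Wnt3 and Nkd1, both with the higher ratio at 100 cells.

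Per kilobase of exon, the order of the 9 genes over all 8 libraries was Tcf7 (mean 22.3 cpm per kb), Tcf7l1 (8.56), Lef1 (3.38), Cdx1 (1.08), Nkd1 (0.422), Sp5 (0.412), Wnt3 (0.376), Axin2 (0.262) and T (0.186). The ranges of Tcf7, Tcf7l1 and Lef1 did not touch each other, nor did that of Lef1 and Cdx1. From Cdx1 down, each gene's range over the 8 libraries overlapped with that of the next. In labelled WT, Axin2 was the seventh at 1000 cells (0.367 ± 0.132 cpm per kb, mean ± SD) and the fifth at 100 cells (0.539 ± 0.128). Its libraries there overlapped with those of Wnt3, Nkd1 and Sp5 at 1000 cells and with those of Sp5 at 100 cells. In labelled KO Axin2 was the last at both inputs (0.0682 ± 0.0431 and 0.0748 ± 0.0282). Wnt3 and Nkd1 changed place too. At 1000 cells Wnt3 was the fifth in labelled WT and the eighth in labelled KO. At 100 cells Nkd1 was the eighth in labelled WT and the fifth in labelled KO. By library, Wnt3 overlapped with Axin2 and Sp5 in labelled WT and with T in labelled KO at 1000 cells. Nkd1 overlapped with Sp5 and T in labelled WT and with Cdx1 in labelled KO at 100 cells.

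The pattern of Axin2 over the 8 libraries was compared with that of the 8365 genes whose mean reached 10 cpm, by the root-mean-square distance between log2(cpm + 1) values centred on each gene's mean. The nearest 5 were Id1, an inhibitor of helix-loop-helix factors (distance 0.211), Plekha4, a pleckstrin homology domain protein (0.212), Hspb1, a small heat shock protein (0.215), Dppa3, a factor of germ cells and early embryos (0.221), and Pmel, a protein of pigment granules (0.225). The median distance over all genes compared was 0.725. Dppa3 lay between 135 and 178 cpm in labelled WT and between 57.2 and 64.7 cpm in labelled KO, and Id1 between 41 and 51.3 and between 17.6 and 23.2 cpm. Axin2 itself is a low-count gene, and adding 1 cpm before the logarithm narrows its spread far more than that of the genes compared. The nearest 5 genes share the direction of the Axin2 difference, but their ratios were smaller than its 5.27-fold and 7.32-fold. A gene of higher level with the same ratio as Axin2 would lie farther away by this measure. The other 8 Wnt target genes were farther from Axin2, from 0.578 for Lef1 to 1.06 for Nkd1. These distances describe the pattern and were not tested.

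**Figure D4:**
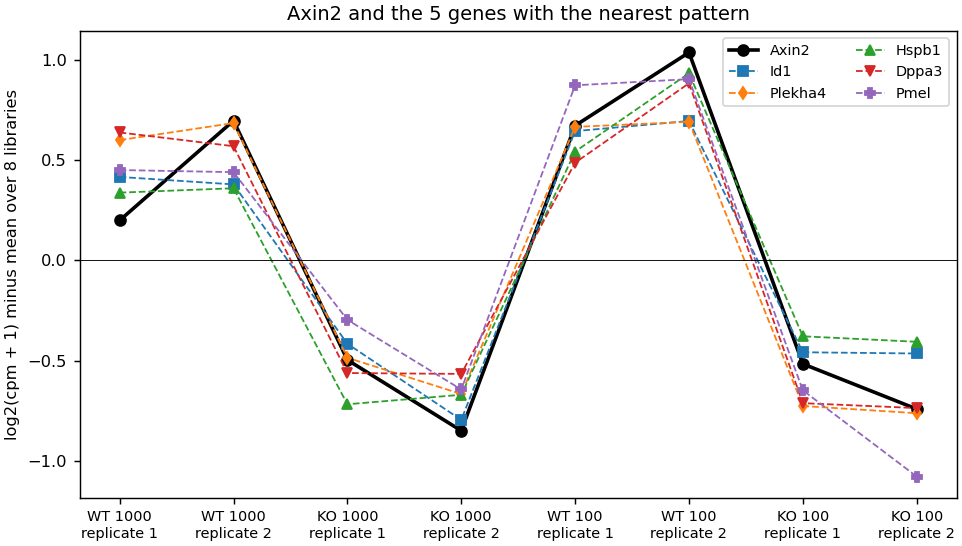
Lines join the 8 libraries in a fixed order, and the vertical axis is log2(cpm + 1) minus the gene's mean over the 8 libraries. Axin2 and the 5 nearest genes are above their mean in each labelled WT library and below it in each labelled KO library.

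Counts of called genes in the pathway lists that follow stand beside 20.9% higher and 20.6% lower among all tested genes at 1000 cells, and 17.6% and 16.6% at 100 cells. Nothing particular to a list is read from them. Most ligand genes upstream of the targets were at or near 0 counts. Of 18 Wnt ligand genes other than Wnt3, 17 had at least 1 count and 8 were tested. At 1000 cells 1 was called higher and 1 lower (median log2 ratio -0.42), and at 100 cells 2 were called in each direction (median -0.07). The members called in the same direction at both inputs, named after their values were seen, were Wnt5a and Wnt8a. Wnt5a, a ligand that mostly acts outside the beta-catenin route, had 22 and 14 counts in labelled WT and 32 and 30 in labelled KO at 1000 cells, and 5 and 9 against 35 and 27 at 100 cells (log2 ratios 0.90 and 1.90, adjusted p = 0.0441 and 0.0127, edgeR). Wnt8a had 5 and 7 counts in labelled WT and 0 and 1 in labelled KO at 1000 cells, and 5 and 10 against 0 and 0 at 100 cells. It entered the test only through the 10 counts of 1 labelled WT library of 100 cells, so that a difference at 100 cells was built into the filter. Its calls were lost in 5 of 9 alternatives at 1000 cells and 2 of 10 at 100 cells. Wls, the carrier that brings Wnt proteins to the cell surface, also named after its values were seen, rose from 32 and 15 counts to 80 and 91 at 1000 cells and from 11 and 23 to 93 and 116 at 100 cells (log2 ratios 1.98 and 2.39, adjusted p = 4.11e-07 and 0.000674). The Wnt5a calls were lost without any 1 library of 1000 cells, and without either labelled KO library of 100 cells (adjusted p = 0.0744 to 0.205 and 0.0787 to 0.193).

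Of the 12 Frizzled and LRP receptor genes, all tested, 4 were called higher and 0 lower at 1000 cells (median log2 ratio -0.15) and 3 higher and 0 lower at 100 cells (median 0.30). Fzd7, the Frizzled best known from ES cells, had 12.7 and 11.1 cpm in labelled WT and 24.5 and 26.6 in labelled KO at 1000 cells, and 13.2 and 13.6 against 21.1 and 22 cpm at 100 cells (log2 ratios 1.09 and 0.64, adjusted p = 2.64e-08 and 0.0107, edgeR). Fzd6 rose as well (0.79 and 1.05, adjusted p = 0.00476 and 0.00658). For Fzd5, the ratio was 0.89 at 1000 cells (adjusted p = 6.64e-08) and 0.21 at 100 cells (0.25), and for Fzd3 it was -0.06 (0.76) and 0.58 (0.0244), and both differences between inputs were called.

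Among the 9 R-spondin, Lgr and ligase genes that set receptor turnover, 6 were tested. At 1000 cells 1 was called higher and 5 lower (median log2 ratio -0.90), and at 100 cells 0 were higher and 2 lower (median -0.82, or -0.59 when genes at the floor of 3 counts were given no value), beside 20.6% and 16.6% lower over all tested genes. Of the called genes, Rnf43 (15 counts at most, in labelled KO of 1000 cells) and Lgr5 (25, in labelled WT of 1000 cells) reached 10 counts only in 1 library of the group where they were high. Lgr4, an R-spondin receptor, lay at 76.2 and 79.1 cpm in labelled WT and 59.1 and 55.3 in labelled KO at 1000 cells, and at 67.9 and 61.2 against 45.9 and 42.6 cpm at 100 cells (log2 ratios -0.44 and -0.59, adjusted p = 4.3e-05 and 0.0057, edgeR). Rspo1, named after its values were seen, was lower at both inputs too (-1.45 and -1.98, adjusted p = 0.00107 and 0.00864). Znrf3, a ligase that removes Frizzled from the membrane, was lower at 1000 cells (-0.47, adjusted p = 0.00587) and not called at 100 cells (0.36, adjusted p = 0.13).

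Of 14 secreted and receptor-level inhibitors, 9 were tested, with 1 called higher and 2 lower at 1000 cells (median log2 ratio 0.12) and 1 higher and 4 lower at 100 cells (median -0.28). Notum, an esterase that strips the lipid from Wnt proteins and is itself a Wnt target, had 10.2 and 12 cpm in labelled WT and 3.03 and 3.94 in labelled KO at 1000 cells, and 11.5 and 12.3 against 7.16 and 7.17 cpm at 100 cells (log2 ratios -1.65 and -0.77, adjusted p = 8.8e-08 and 0.0116, edgeR). Sfrp4, a decoy receptor, had a ratio of -0.04 at 1000 cells (adjusted p = 0.831) and was lower at 100 cells (-0.95, adjusted p = 0.00442). Dkk3, a divergent Dickkopf protein named after its values were seen, was higher at both inputs (1.46 and 1.74, adjusted p = 0.000684 and 0.00254).

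All 14 genes of Dishevelled, the destruction complex and beta-catenin were tested. At 1000 cells 6 were called higher and 2 lower (median log2 ratio 0.16), and at 100 cells 5 higher and 1 lower (median 0.25). Gsk3a, a kinase that marks beta-catenin for breakdown, rose at both inputs (log2 ratios 0.68 and 0.71, adjusted p = 0.00585 and 0.0182, edgeR), as did Btrc, the F-box protein that recognises marked beta-catenin (0.51 and 0.47, adjusted p = 4.02e-05 and 0.0149). The Gsk3a calls were lost with DESeq2 (adjusted p = 0.0683 and 0.0519), that at 1000 cells also without labelled WT replicate 1 (log2 ratio 0.53). At 100 cells the calls of Gsk3a and Btrc were lost without labelled KO replicate 1 or replicate 2. The log2 ratios there were 0.67 and 0.74 for Gsk3a and 0.48 and 0.46 for Btrc. Dvl1 was called lower (-0.51 and -0.62, adjusted p = 0.0319 and 0.0492), but the call was lost in 5 of 12 alternatives at 1000 cells and 9 of 12 at 100 cells. Dvl2 was higher at 100 cells (0.81, adjusted p = 0.00103) but not called at 1000 cells (0.21, adjusted p = 0.155).

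Of the 10 nuclear partners, all tested, 3 were called higher and 3 lower at 1000 cells (median log2 ratio 0.08) and 3 higher and 1 lower at 100 cells (median 0.40). The Groucho corepressors went apart: Tle4 lay at 165 and 172 cpm in labelled WT and 94.3 and 90.9 in labelled KO at 1000 cells, and at 184 and 144 against 94.9 and 93.5 cpm at 100 cells (log2 ratios -0.86 and -0.85, adjusted p = 2.7e-11 and 0.00171, edgeR), while Tle3 rose (1.20 and 0.92, adjusted p = 9.61e-07 and 0.00554). Ctnnbip1, which blocks the contact of beta-catenin with TCF factors, was lower at 1000 cells (-0.73, adjusted p = 7.33e-05) and not called at 100 cells (0.30, adjusted p = 0.314).

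A further list of 14 Wnt target genes had 11 tested members, of which 1 was called higher and 6 lower at 1000 cells (median log2 ratio -0.47) and 1 higher and 3 lower at 100 cells (median -0.30, or -0.14 with genes at the floor of 3 counts left out or set to their bound). It shares Dkk1, Lgr5, Rnf43, Znrf3 and Notum with the lists above, so calls of those genes are counted in both. Myc, a growth regulator, had 45.5 and 43.8 cpm in labelled WT and 15.2 and 15.7 in labelled KO at 1000 cells, and 47.6 and 45.3 against 14.8 and 13.4 cpm at 100 cells (log2 ratios -1.53 and -1.76, adjusted p = 1.22e-12 and 5.01e-05, edgeR). Its call held in 12 of 12 alternatives at each input.

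Of 5 genes that Tcf7l1 is known to hold down in ES cells, 4 were called higher and 0 lower at 1000 cells (median log2 ratio 0.53) and 3 higher and 0 lower at 100 cells (median 0.44), beside 20.9% and 17.6% higher over all tested genes, while Tcf7l1 itself was called at neither input. Nanog rose from 285 and 282 cpm in labelled WT to 623 and 615 in labelled KO at 1000 cells, and from 276 and 285 to 446 and 420 cpm at 100 cells (log2 ratios 1.13 and 0.58, adjusted p = 1.43e-15 and 0.00269, edgeR). Nr5a2 rose at both inputs (0.46 and 0.44, adjusted p = 0.000246 and 0.0262). Esrrb and Tfcp2l1 were higher at 1000 cells (0.53 and 0.92, adjusted p = 4.48e-07 and 7.6e-11) and not called at 100 cells (-0.18 and 0.23, adjusted p = 0.271 and 0.261).

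Of the named pathway genes, 20 were called at 100 cells. Many of these calls were lost without replicate 1 or replicate 2 of labelled KO at 100 cells, as were many calls over all tested genes. Each such fit leaves 1 labelled KO library, and the log2 ratios of the lost genes kept their sign. Nanog had 0.54 and 0.62 there, beside 0.58 with every library, and Tcf7l2 had 0.58 and 0.74, beside 0.66. At 1000 cells, 2 or 3 of the 22 named genes called were lost for each library left out (adjusted p = 0.0511 to 0.205). With DESeq2, 5 of the 22 (Dvl1, Fzd6, Gsk3a, Wnt5a and Znrf3, adjusted p = 0.0549 to 0.226) and 7 of the 20 (Dvl1, Fzd3, Gsk3a, Notum, Nr5a2, Tcf7l2 and Wnt5a, 0.0513 to 0.2) were lost. The brain markers were raised in the labelled KO libraries of 100 cells beside each of these 100-cell ratios. Beside the 1000-cell ratios they were at 30 and 26.9 cpm in sum against 15.2 cpm, a gap mostly of Mobp. The part of these markers was not tested.

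**Figure D5:**
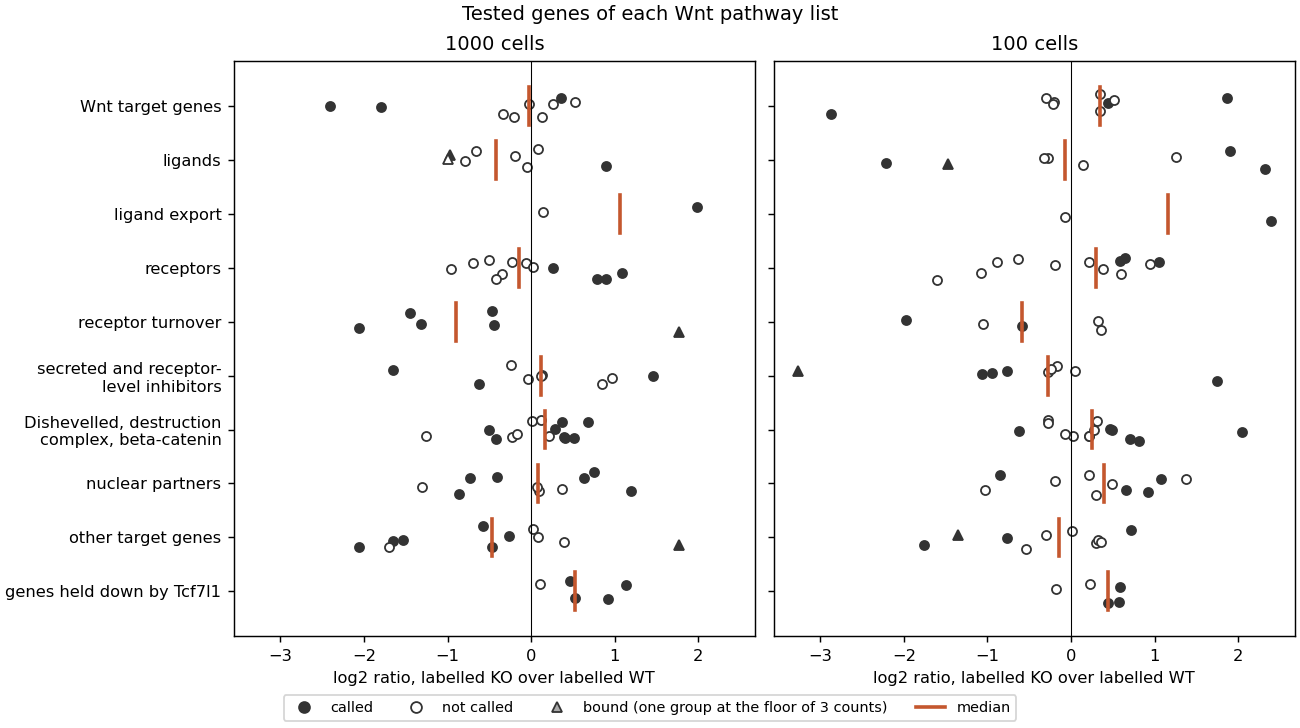
Points are tested genes of each list, placed by the log2 ratio of labelled KO over labelled WT at 1000 cells (left) and 100 cells (right); triangles are bounds for genes with at most 3 counts in both libraries of 1 group, and bars are medians over the points drawn. Receptor turnover genes lie mostly below 0 at 1000 cells (5 of 6 called lower, beside 20.6% of all tested genes). Among the 5 is Lgr5, which passed the filter only through replicate 1 of labelled WT at 1000 cells (25 counts). Rnf43, called higher there, passed it only through replicate 2 of labelled KO at 1000 cells (15 counts). The filter thus favoured both calls, and nothing particular to the list is read from these counts. The receptors called at an input lie above 0 at that input (4 of 12 at 1000 cells, 3 of 12 at 100 cells). Beside them, 20.9% and 17.6% of all tested genes were called higher, and the medians of the 12 receptors are -0.15 and 0.30.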

How the data were processed

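Libraries were made by the authors with the SMARTer Ultra Low RNA Kit and Nextera from 1000 or 100 lysed ES cells. The authors removed ribosomal RNA reads (Bowtie2 2.1.0), mapped to mm10 (TopHat2 2.0.10) and counted fragments per GENCODE gene without strand (HTSeq 0.6.1), discarding fragments of several genes or positions. CASAVA 1.8.2 is also listed in the submitters' processing notes. The deposited values are raw counts per gene, 9666985 to 16686525 per library. GENCODE M21, which 97.96% of the 43309 identifiers matched, gave symbols, GRCm38 positions and exon lengths.

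Here, the 16816 genes that reached 10 counts in any library were tested with edgeR 4.0.16 (R 4.3.3): TMM scaling, quasi-likelihood F test, Benjamini-Hochberg adjustment, 4 libraries per comparison and all 8 for the difference between inputs. SE and approximate 95% intervals come from the F statistic. Counting intervals are exact (Clopper-Pearson) and cover counting error only. The fit was checked on simulated counts. Alternatives were DESeq2 1.42.0, other scalings and filters, thinning, a replicate block, 1 fit of all libraries and leaving out each library. From the pathway lists, genes called alike at both inputs or with a called difference between inputs were named if their mean reached 5 cpm, at most 4 per list, and any others are marked as named after their values were seen. One gene of a marker list is not reported here. Members, lists and rules were chosen with earlier results of these data known.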

Additional observations from a re-analysis of the deposited data

Results flagged for a closer look

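For 12 of the genes named above, the ratio of labelled KO over labelled WT differed between inputs by edgeR's test of that difference in all 8 libraries (adjusted p of at most 0.05). Values are log2 ratio at 100 cells minus log2 ratio at 1000 cells. Of the Wnt target genes, Wnt3 (2.34, adjusted p = 0.0247) and Nkd1 (1.93, adjusted p = 0.0392) had the higher ratio at 100 cells. Of the pathway genes, Ctnnbip1 (1.07), Notum (0.92), Znrf3 (0.89), Fzd3 (0.69) and Dvl2 (0.65) had the higher ratio at 100 cells, with adjusted p between 0.0152 and 0.0449. Sfrp4 (-0.87), Esrrb (-0.66), Tfcp2l1 (-0.64), Fzd5 (-0.63) and Nanog (-0.50) had the lower ratio there, with adjusted p between 0.00582 and 0.0265. Esrrb was the only 1 of the 12 whose call held in all of its 15 alternatives. The 11 adult brain markers were raised in both labelled KO libraries of 100 cells, which enter each of these differences, and their part was not tested. Groups of 2 libraries were too small for a search for single outlying libraries.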

How the results depend on the processing

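Of 539 values of the 9 Wnt target genes under an alternative, 463 kept their sign and their side of the threshold, 23 lost and 11 gained a call, and 42 changed sign, none of the latter a called value. Axin2 was called at both inputs wherever it was tested. A filter of at least 10 counts in every library removed Axin2, Wnt3, Nkd1, Sp5 and T and left 1 called gene at 1000 cells, 1 at 100 cells, 0 for the difference between inputs and 2 between inputs in labelled KO. The difference between inputs was called for 0 genes with DESeq2 and 1 after thinning. Between inputs in labelled WT, 1 gene (Tcf7l1) was called with DESeq2, with at least 1 count in any library, with 1 fit of all 8 libraries and with the replicate block, and the calls over all genes, 139 with edgeR, were 79 with library size alone, 212 with DESeq2, 463 with at least 1 count in any library, 10 after thinning and 676 with 1 fit of all 8 libraries. In labelled KO they were 8753 with edgeR and 5641 with DESeq2.

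The replicate numbers are shared by the labels of all groups, with no statement that they pair libraries, and differences between replicates 1 and 2 correlated at 0.157 between genotypes at 1000 cells and 0.172 at 100 cells, with -0.124 between inputs in labelled WT. With the replicate block, calls between inputs in labelled WT over all genes rose to 285. With the numbers crossed, an alternative chosen after seeing the data, they were 512, with 1 Wnt target gene. The block changed no other call of the 9 genes; Dvl1 at 100 cells (adjusted p = 0.051) and the difference between inputs of Fzd3 (0.0551) lost theirs.

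Leaving out each library in turn gave 1 to 4 called genes at 100 cells, 0 to 2 for the difference between inputs and 0 to 1 between inputs in labelled WT. Over all genes it gave 2102 (without labelled KO replicate 2) to 9551 (without labelled WT replicate 2) calls at 100 cells, 727 to 5635 for the difference between inputs (without the same 2 libraries), and 6 (without replicate 2 of 1000 cells) to 2631 (without replicate 1 of 100 cells) between inputs in labelled WT. The causes were not tested.

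Signs that turned were of log2 ratios near 0 or of genes with few counts. At 1000 cells, leaving out 1 library gave -0.32 to 1.94 for Sp5, -0.21 to 0.15 for Nkd1, -0.83 to 0.24 for Cdx1, -0.13 to 0.60 for T, -0.20 to 0.08 for Fzd3 and -0.11 to 0.04 for Sfrp4. At 100 cells it gave -0.35 to 2.37 for Sp5, -0.46 to 0.05 for Cdx1 and -0.21 to 1.52 for T. For the difference between inputs it gave -0.99 to 0.36 for Axin2, -0.20 to 0.10 for Lef1, -1.55 to 1.87 for Sp5, -0.42 to 0.66 for Cdx1 and -0.43 to 1.30 for T, and Sp5 came to 0.00 with DESeq2 and 0.01 with the replicate block, Lef1 to 0.03 after thinning. Between inputs in labelled WT it gave -0.11 to 0.18 for Lef1 (-0.00 with library size alone), -1.63 to 1.75 for Sp5, -0.57 to 0.53 for Cdx1, -0.59 to 1.09 for T and -0.22 to 0.01 for Wnt3. In labelled KO it gave -0.39 to 0.97 for Axin2 (-0.17 after thinning), -0.12 to 0.11 for Lef1 (0.05 after thinning, 0.02 with at least 10 counts in every library) and -0.12 to 0.30 for Cdx1, and Sp5 came to -0.44 after thinning. Axin2, Wnt3, Nkd1, Sp5, Cdx1 and T had fewer than 60 counts in each library, which limits what these comparisons could detect.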
